A study of Mus musculus with 12 samples.

Results

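The response of the gonadal fat pad of female mice to dihydrotestosterone (DHT) was examined across all genes and beyond those of lipid metabolism. The data are the 6 gonadal fat arrays among the 12 arrays of the series, chosen by their tissue label. C57BL/6J females were given a capsule with 5 mg of DHT, or an empty one, at 25 days of age and were killed about 60 days later. Each gonadal fat array, an Affymetrix mouse transcriptome array, holds the pad of 1 mouse, with 3 mice per treatment, and the other 6 arrays hold ovaries of the same 2 treatments. The comparison asks which transcripts a long androgen excess, a model of the polycystic ovary syndrome (PCOS), changes in fat. RNA came from the whole pad, which holds several cell types, so a shift in the number of cells of a type and a change in the RNA of each cell cannot be told apart.

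DHT is a potent androgen that aromatase does not convert to estrogen. It binds the androgen receptor, a nuclear receptor that enters the nucleus and binds DNA elements shared in part with the glucocorticoid receptor. Gonadal fat is a visceral depot of white adipocytes with a stroma of fibroblasts and adipocyte progenitors, vessels, macrophages and other leukocytes, under a covering mesothelium. Adipocytes store triglyceride, release it under adrenergic and natriuretic signals, and secrete hormones such as leptin and adiponectin. The gene of the androgen receptor itself was not analysed here.

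Values are log2 signals of 1 transcript cluster per gene as the authors deposited them, and changes are differences of group means on that scale (DHT minus control). Array medians lay between 3.30 and 3.52. In the gonadal fat columns, 26501 of the 65929 clusters stood 58 rows away from their names and were re-paired. This moved Adipoq, the adiponectin gene, from a mean of 2.26 to 9.67. Genes above the array median in at least 3 of the 6 arrays were tested with limma, a linear model that borrows the spread of all genes. A gene rose or fell where its adjusted p was 0.10 or less. It was called dysregulated if it had also changed 2-fold or more with an unadjusted p of 0.05 or less. The SD across genes of the difference between 2 arrays of a group was 0.19 to 0.30. Of the placebo-treated mice, replicate 1 stood apart by smooth muscle transcripts and replicate 3 by skeletal muscle transcripts, as their markers show further on. The labels call the arrays biological replicates, and precision is limited by their number.

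More genes rose than fell in gonadal fat with DHT. Among 19227 genes tested, 513 rose (2.67%) and 233 fell (1.21%), and the median log2 fold change of all genes was -0.01. The 110 dysregulated genes comprised 75 higher (0.39%) and 35 lower ones (0.182%). Of these, 12 were on a list of lipid metabolism and 98 were not. That list held 181 of the 19227 genes tested, so its share was larger among the dysregulated genes than among all genes. This difference in share was not tested. The lists were written with the paper and earlier results of these data known, so it is a description. Counts of each list below are likewise descriptions, to be read beside the 2.67% and 1.21% of all genes. The groups overlapped in none of the 110, so a lack of overlap given below for such a gene does not set it apart. In 6 of the 110, Sult1e1 and Tdo2 among them, all values of one group lay below the array medians, so that they entered the test through the other group alone. The largest increases were those of Sult1e1, C7 and Cyp1a1, and the largest decrease was that of Rgs16. The counts of 513 and 233 fell to 109 and 29 without DHT replicate 2, and to 142 and 71 without control replicate 3. With arrays left out singly, 55 of the 75 higher and 12 of the 35 lower genes kept an adjusted p within 0.10 in all 6 fits. The number of dysregulated genes was 56 higher and 13 lower without DHT replicate 2, and 69 and 25 without control replicate 1. Without control replicates 1 and 3 it was 63 and 17. With every array centred on its median, 387 genes rose and 71 fell, against 513 and 233 as deposited. The mean of 12 adipocyte markers was 9.99 to 10.09 with DHT and 9.43 to 9.51 with placebo, and the part of this difference in the increases below was not tested.

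**Figure D1:**
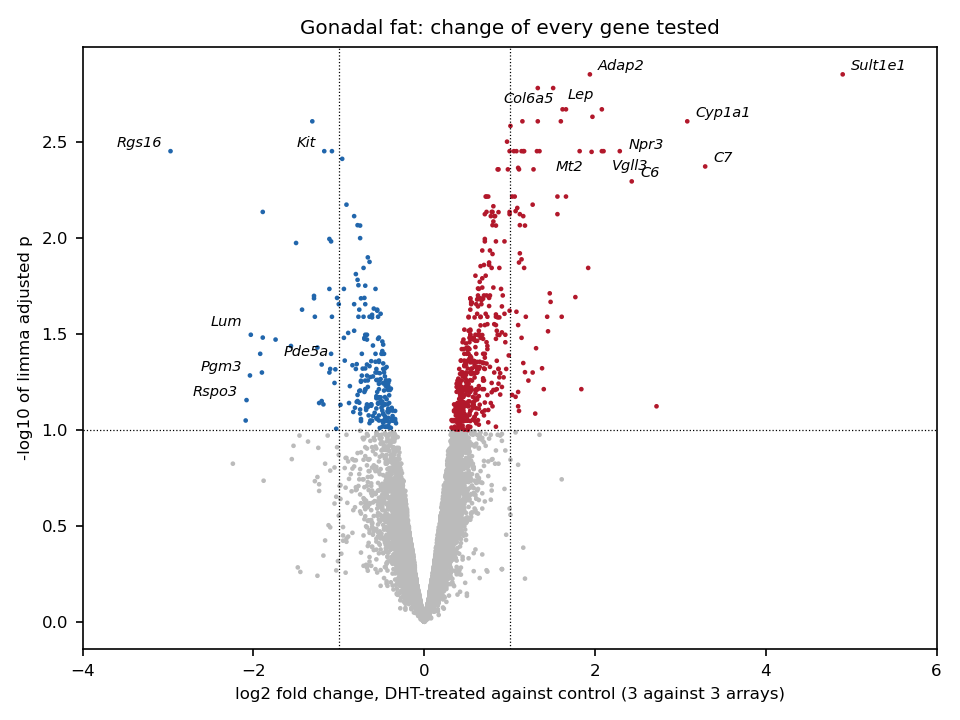
Change of every gene tested in gonadal fat: the x axis is the log2 fold change, DHT-treated against placebo-treated mice (3 arrays each), and the y axis is -log10 of limma's adjusted p. Each point is 1 gene, red where it rose, blue where it fell and grey where it did not pass, the dotted lines stand at an adjusted p of 0.10 and at 2-fold, and Sult1e1 lies farthest to the right at 4.90.

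The largest measured change was that of Sult1e1, which encodes the estrogen sulfotransferase that inactivates estrogens. Its values were 7.46, 7.03 and 6.13 with DHT and 1.93, 2.13 and 1.85 with placebo, so that the lowest DHT value stood far above the highest control value. All 3 control values lay below the medians of their arrays, where the signal may be background, so Sult1e1 entered the test through its DHT arrays alone. Against those medians the increase was at least 10.7-fold, a bound that does not cover sampling error. The measured difference was 4.90 (standard error 0.29, adjusted p = 0.0014), which rests on these control values. Hsd11b1, which regenerates active glucocorticoid in fat, rose as well. It measured 6.65, 5.75 and 5.71 with DHT and 4.74, 4.59 and 4.84 with placebo, a difference of 1.31 (standard error 0.23, adjusted p = 0.0375). Akr1c14, a hydroxysteroid dehydrogenase that acts on DHT and also belongs to the lipid list, measured 3.39, 3.29 and 3.31 with DHT and 5.31, 4.31 and 4.66 with placebo and fell by 1.43 (adjusted p = 0.0236). Its DHT values of replicates 2 and 3 lay below the medians of their arrays, so the size of the decrease is not well measured. Star, which brings cholesterol into mitochondria, fell by 0.53 (adjusted p = 0.0724) at low values. Of 19 genes of steroid conversion tested, 2 rose, 2 fell and the remaining 15 did not pass (median log2 fold change -0.08, -0.09 to 0.00 with 1 array left out). Hsd11b1 no longer passed without control replicate 2 or 3 (adjusted p = 0.102 to 0.11). The call of Akr1c14 was lost without DHT replicate 2 (adjusted p = 0.106). Star missed the threshold without any 1 of the 6 arrays (adjusted p = 0.117 to 0.219).

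The receptors Esr1 and Pgr fell. Esr1, the estrogen receptor alpha, measured 6.09, 5.92 and 6.0 with DHT and 6.94, 6.49 and 6.60 with placebo. It fell by 0.67 (standard error 0.13, adjusted p = 0.0456). Pgr, the progesterone receptor and a known estrogen target in other tissues, fell by 0.69 (adjusted p = 0.0613) between values of 4.0 to 4.56 with placebo and 3.45 to 3.66 with DHT. The DHT values of Pgr lay close above the medians of their arrays (3.3, 3.37 and 3.44), so the size of its decrease is not well measured. The other 6 receptors of the list did not pass, and the list had a median of 0.00. With every array centred on its median, neither Esr1 nor Pgr passed (adjusted p = 0.147 and 0.145). The call of Esr1 ended without DHT replicate 2 or control replicate 3 (adjusted p = 0.131 to 0.199). Pgr no longer passed without DHT replicate 1 or 2 or control replicate 2 (adjusted p = 0.112 to 0.222).

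Among the genes that glucocorticoids or androgens are known to induce, the 2 metallothioneins Mt1 and Mt2 rose most. Metallothioneins are small cysteine-rich proteins that bind zinc and copper. Mt2 measured 11.55, 11.86 and 11.43 with DHT and 10.07, 9.43 and 9.45 with placebo and rose by 1.96 (standard error 0.19, adjusted p = 0.00355). Mt1, its neighbour on chromosome 8 in the GRCm38.p6 RefSeq annotation, measured 11.14, 11.30 and 11.01 with DHT and 10.33, 10.06 and 10.05 with placebo and rose by 1.0 (standard error 0.12, adjusted p = 0.0075). In both genes, all DHT values lay above all control values. Fkbp5, a co-chaperone of steroid receptors and a classic glucocorticoid and androgen target, rose by 0.87 (adjusted p = 0.0481) in gonadal fat and fell by 1.20 in the ovaries (adjusted p = 0.0253). Of 32 such genes, 4 rose, none fell and the remaining 28 did not pass (median log2 fold change 0.29, 0.22 to 0.33 with 1 array left out). The fourth was Angptl4, described below. Among all genes, 2.67% rose and 1.21% fell. Errfi1, a brake on EGF receptor signalling, had a log2 difference of 0.65 (adjusted p = 0.107). The call of Fkbp5 was lost without DHT replicate 1 or 2 or control replicate 2 or 3 (adjusted p = 0.11 to 0.201).

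The promoters of the metallothionein pair are shown because the 2 neighbours rose together. They are RefSeq windows of GRCm38.p6 from 250 bases before to 50 bases after the start, on the strand of the gene, with the letters TGCGCNC or TGCACNC of metal response elements, on either strand, in capitals. Mt2 holds 4 matches and Mt1 holds 3. TGCGCNC stood in 24.9% and TGCACNC in 13.3% of the 12132 promoters found for the genes tested, so that the letters are common.
Mt2, chr8:94172368-94172667: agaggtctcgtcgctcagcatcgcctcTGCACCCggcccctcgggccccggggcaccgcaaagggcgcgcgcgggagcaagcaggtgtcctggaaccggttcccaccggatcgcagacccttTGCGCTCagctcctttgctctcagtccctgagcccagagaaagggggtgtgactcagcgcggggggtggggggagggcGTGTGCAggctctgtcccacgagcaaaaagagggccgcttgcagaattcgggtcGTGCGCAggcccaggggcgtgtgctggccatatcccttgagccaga
Mt1, chr8:94178839-94179138: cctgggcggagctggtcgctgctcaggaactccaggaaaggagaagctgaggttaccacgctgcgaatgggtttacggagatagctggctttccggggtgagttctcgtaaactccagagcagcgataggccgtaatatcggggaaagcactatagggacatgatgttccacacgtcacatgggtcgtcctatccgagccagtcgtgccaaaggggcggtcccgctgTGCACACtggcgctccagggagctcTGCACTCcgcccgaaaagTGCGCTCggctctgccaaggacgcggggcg

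The half-site of the androgen and glucocorticoid receptors, AGAACA, was read on both strands of the same windows. It stood in 45 of 376 promoters of genes that rose (12.0%), in 14 of 151 of genes that fell (9.27%) and in 13.2% of all promoters of tested genes. The full palindrome of 2 half-sites with 3 bases between them stood in none of the 12132. Sult1e1, C7, C6, Lep and Col6a5 had no half-site in this window. Npr3 and Serpina3n, both among the 15 named genes with the largest increase, held 1 each, shown here in capitals. No match says only that these letters are not in the window.
Npr3, chr15:11907322-11907621: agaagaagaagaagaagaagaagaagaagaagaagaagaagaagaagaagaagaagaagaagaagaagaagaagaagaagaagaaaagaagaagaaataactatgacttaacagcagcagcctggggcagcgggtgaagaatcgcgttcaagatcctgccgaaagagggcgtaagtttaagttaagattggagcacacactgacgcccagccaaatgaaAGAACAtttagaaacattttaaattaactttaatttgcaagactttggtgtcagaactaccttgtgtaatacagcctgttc
Serpina3n, chr12:104406458-104406757: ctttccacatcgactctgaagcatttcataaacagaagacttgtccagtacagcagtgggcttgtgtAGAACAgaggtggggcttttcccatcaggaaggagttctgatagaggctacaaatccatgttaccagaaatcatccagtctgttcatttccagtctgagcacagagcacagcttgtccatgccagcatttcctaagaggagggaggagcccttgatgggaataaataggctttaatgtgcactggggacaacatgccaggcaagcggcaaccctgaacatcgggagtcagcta

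Of 26 adipokines, 4 rose, none fell and the remaining 22 did not pass, where 2.67% of all genes rose and 1.21% fell. The median log2 fold change of the list was 0.15, and 0.04 to 0.20 with 1 array left out. Lep, the gene of the satiety hormone leptin, measured 9.87, 9.71 and 10.04 with DHT and 7.48, 8.0 and 7.91 with placebo and rose by 2.08 (standard error 0.15, adjusted p = 0.00213). Hp, the hemoglobin-binding protein haptoglobin, rose by 1.06 (adjusted p = 0.00607), and Ccdc80, a secreted matrix protein of adipocytes, by 1.56 (adjusted p = 0.0075). Angptl4, an inhibitor of lipoprotein lipase, rose by 0.96 (adjusted p = 0.0481). Lcn2, which binds bacterial siderophores, had a log2 difference of 0.78 (adjusted p = 0.106). Adipoq measured 9.97, 9.79 and 9.77 with DHT and 9.54, 9.43 and 9.52 with placebo, a log2 fold change of 0.35 (adjusted p = 0.117). Serpina3n, a secreted serine protease inhibitor of the acute phase, measured 10.07, 10.94 and 10.44 with DHT and 8.93, 8.22 and 8.98 with placebo and rose by 1.77 (standard error 0.26, adjusted p = 0.0203). Nnat, an imprinted gene of a small membrane protein, measured 8.09, 8.46 and 8.87 with DHT and 6.46, 6.19 and 6.52 with placebo and rose by 2.08 (standard error 0.19, adjusted p = 0.00352). The imprinted Peg10, derived from a retrotransposon, rose by 1.15 (adjusted p = 0.00246), while the other 24 imprinted genes tested did not pass. Angptl4 missed the threshold without DHT replicate 2 or 3 or control replicate 3 (adjusted p = 0.107 to 0.193).

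The complement genes C6 and C7 were among the largest increases. C6 and C7 encode proteins of the membrane attack complex, which assembles on target membranes after C5 is cleaved. C7 measured 8.20, 8.32 and 7.52 with DHT and 5.35, 4.05 and 4.78 with placebo and rose by 3.29 (standard error 0.33, adjusted p = 0.00423). C6, its neighbour on chromosome 15 in the RefSeq annotation, measured 7.38, 7.52 and 6.91 with DHT and 5.30, 4.31 and 4.90 with placebo and rose by 2.43 (standard error 0.25, adjusted p = 0.00506). In neither gene did the groups overlap, and in both the lowest control value was that of replicate 2. Cd59a, which blocks the assembly of the same complex, rose by 0.80 (adjusted p = 0.0073). Clu, or clusterin, another inhibitor of it, fell by 0.45 (adjusted p = 0.0553). Of 32 complement genes, 3 rose, 1 fell and the remaining 28 did not pass (median log2 fold change 0.16, 0.07 to 0.22 with 1 array left out). C1qb, a chain of the recognition molecule C1q, had a log2 difference of 0.53 (adjusted p = 0.169) with overlapping groups. The call of Clu ended without any 1 array other than DHT replicate 1 (adjusted p = 0.105 to 0.182).

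**Figure D2:**
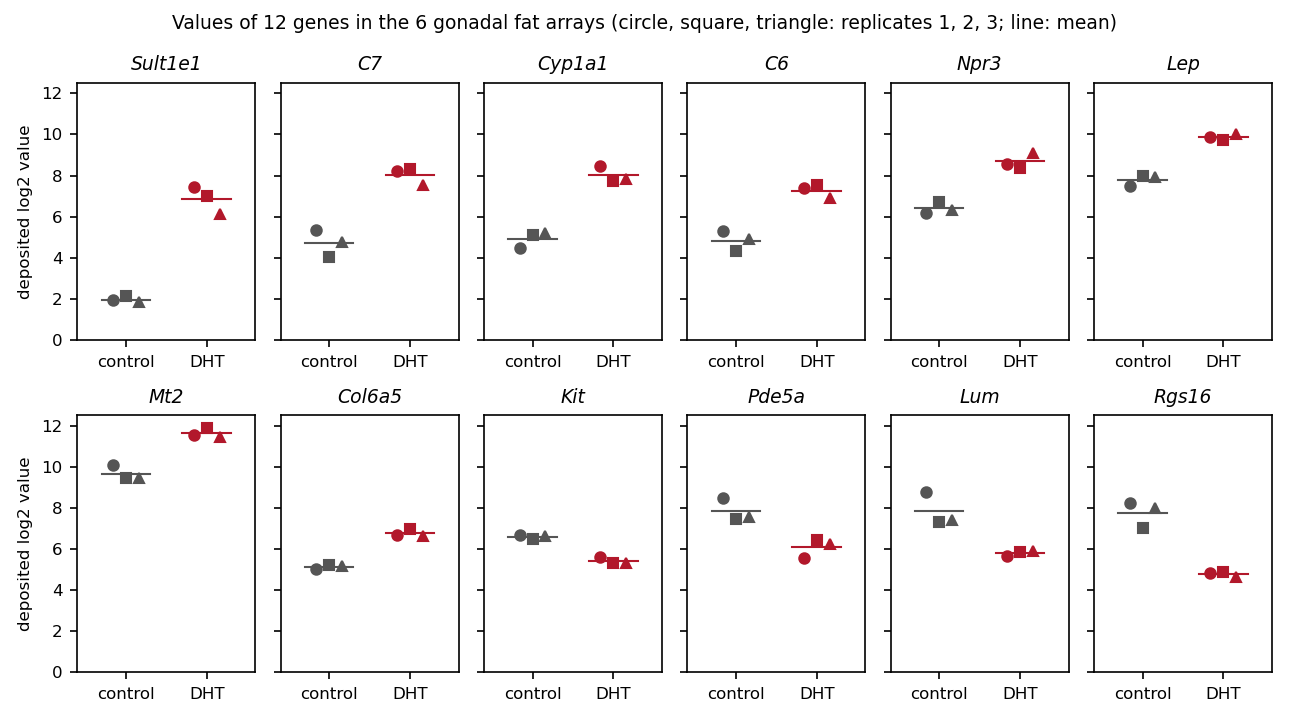
Deposited log2 values (y axis) of 12 named genes in the 3 placebo-treated (grey) and 3 DHT-treated (red) gonadal fat arrays: each symbol is 1 array and each line a group mean. In no panel do the groups overlap, which holds for all 110 dysregulated genes and so does not set these genes apart. Sult1e1 lies near 2 in placebo-treated mice and Rgs16 below 5 in DHT-treated mice.

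Cyp1a1, Tpmt and several glutathione enzymes rose. Cyp1a1, a cytochrome P450 that the aryl hydrocarbon receptor induces, measured 8.48, 7.73 and 7.82 with DHT and 4.46, 5.11 and 5.21 with placebo and rose by 3.08 (standard error 0.25, adjusted p = 0.00246). Among 28 genes of that receptor and of cytochromes P450, 2 rose, 1 fell and the remaining 25 did not pass (median log2 fold change 0.08, 0.02 to 0.08 with 1 array left out). The others were Cyp2b10, which rose by 0.69 (adjusted p = 0.0538), and Cyp7b1, an oxysterol hydroxylase, which fell by 0.42 (adjusted p = 0.0865). Nqo1, a quinone reductase and also a target of the aryl hydrocarbon receptor, measured 5.86, 4.90 and 4.93 with DHT and 4.36, 4.15 and 4.44 with placebo, a log2 fold change of 0.91 (adjusted p = 0.114). Tpmt, the thiopurine methyltransferase, measured 6.98, 7.25 and 6.33 with DHT and 5.20, 4.50 and 5.12 with placebo and rose by 1.92 (standard error 0.26, adjusted p = 0.0143). The 34 genes of glutathione metabolism tested had a median log2 fold change of 0.22, and 0.10 to 0.26 with 1 array left out. Where 2.67% of all genes rose and 1.21% fell, 30 of the 34 did not pass, none fell and 4 rose. They were Mgst3, a microsomal glutathione transferase, by 1.08 (adjusted p = 0.0242), the transferases Gstz1 by 0.74 (adjusted p = 0.0365) and Gstk1 by 0.87 (adjusted p = 0.0481), and the peroxidase Gpx1 by 0.42 (adjusted p = 0.0796). Tdo2, which opens the ring of tryptophan, measured 5.68, 4.06 and 4.07 with DHT and 2.83, 2.70 and 2.76 with placebo and rose by 1.84 (adjusted p = 0.0613) as measured. Its control values lay below the array medians, so it too entered the test through its DHT arrays alone, and against those medians the increase was at least 2.23-fold. DHT replicate 1 was the highest by far. Cyp2b10 and Gstk1 no longer passed without DHT replicate 2 or control replicate 2 or 3 (adjusted p = 0.111 to 0.201). The calls of Cyp7b1 and Gpx1 were lost without any 1 of the 6 arrays (adjusted p = 0.111 to 0.28). Gstz1 missed the threshold without DHT replicate 2 (adjusted p = 0.139). The call of Tdo2 ended without DHT replicate 2 or control replicate 1, 2 or 3 (adjusted p = 0.104 to 0.178).

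Npr3 rose and Pde5a and Rgs16 fell among genes of cyclic nucleotide and G protein signalling. Npr3, the clearance receptor that removes natriuretic peptides, measured 8.58, 8.38 and 9.10 with DHT and 6.16, 6.72 and 6.32 with placebo and rose by 2.29 (standard error 0.21, adjusted p = 0.00352). Pde5a, the phosphodiesterase that degrades cGMP, measured 5.56, 6.42 and 6.26 with DHT and 8.46, 7.45 and 7.56 with placebo and fell by 1.74 (standard error 0.30, adjusted p = 0.0338), with control replicate 1 highest. Pde3b, through which insulin restrains lipolysis, rose by 0.63 (adjusted p = 0.032), and Pde1a rose by 0.74 (adjusted p = 0.0379). Of 23 genes of natriuretic peptide and cGMP signalling, 3 rose, 2 fell and the remaining 18 did not pass (median log2 fold change 0.00, -0.05 to 0.05 with 1 array left out). Rgs16, which switches off Gi and Gq proteins, had the largest decrease of all genes tested. It measured 4.83, 4.89 and 4.63 with DHT and 8.25, 7.02 and 7.98 with placebo and fell by 2.97 (standard error 0.28, adjusted p = 0.00352). Gnai1, a Gi alpha subunit, rose by 1.03 (adjusted p = 0.00607), the fatty acid receptor Ffar4 by 0.60 (adjusted p = 0.037) and the adenylyl cyclase Adcy6 by 0.41 (adjusted p = 0.0553). The 35 genes of RGS proteins, adrenergic receptors and their G proteins had a median of -0.01, and 31 of them did not pass. Pde3b and Ffar4 no longer passed without DHT replicate 2 or control replicate 3 (adjusted p = 0.106 to 0.152). The call of Pde1a was lost without control replicate 3 (adjusted p = 0.134). Adcy6 missed the threshold without DHT replicate 2 or 3 or control replicate 1 or 3 (adjusted p = 0.111 to 0.246).

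The factors Ebf2, Ebf1, Cebpa and Zfp423 of adipocyte differentiation rose. Ebf2, a transcription factor of adipocyte progenitors and beige adipocytes, rose by 0.98 (adjusted p = 0.00438) and its relative Ebf1 by 0.54 (adjusted p = 0.0236). Cebpa, which with PPAR gamma drives terminal differentiation, rose by 0.64 (adjusted p = 0.0184), and Zfp423, a preadipocyte factor, by 0.38 (adjusted p = 0.0597). Of 40 adipogenic factors, 4 rose, none fell and the remaining 36 did not pass (median log2 fold change 0.14, 0.09 to 0.19 with 1 array left out). Among all genes, 2.67% rose and 1.21% fell. Vgll3, a cofactor of TEAD transcription factors that restrains adipogenesis in cultured mouse preadipocytes, changed more than these 4 factors. It measured 6.89, 7.42 and 7.66 with DHT and 5.44, 5.17 and 5.04 with placebo and rose by 2.10 (standard error 0.20, adjusted p = 0.00352). The 21 genes tested of the Hippo pathway, to which TEAD factors belong, had a median log2 fold change of 0.18. Of these, 4 rose and none fell, where 2.67% of all genes rose and 1.21% fell. Besides Vgll3 they were Mob1a, Sav1 and Wwtr1, with log2 fold changes of 0.44 (adjusted p = 0.0877), 0.43 (adjusted p = 0.0889) and 0.32 (adjusted p = 0.0889). Hoxc8, a positional gene, rose by 1.05 (adjusted p = 0.00352) and Hoxd11 fell by 0.41 (adjusted p = 0.0552), among 30 Hox genes of which 28 did not pass. Sox4, a transcription factor of progenitors, fell by 1.25 (adjusted p = 0.0372), and Rbm24, an RNA-binding protein of muscle, by 1.20 (adjusted p = 0.0456). The call of Ebf1 ended without DHT replicate 2 or control replicate 3 (adjusted p = 0.102 to 0.139). Cebpa and Sox4 no longer passed without DHT replicate 2 (adjusted p = 0.11 to 0.139). The calls of Zfp423, Wwtr1 and Hoxd11 were lost without any 1 of the 6 arrays (adjusted p = 0.103 to 0.322). Mob1a missed the threshold without DHT replicate 1 or 2 or control replicate 2 or 3 (adjusted p = 0.196 to 0.297). The call of Sav1 ended without any 1 array other than DHT replicate 1 (adjusted p = 0.118 to 0.318). Rbm24 no longer passed without DHT replicate 1 or 2 (adjusted p = 0.113 to 0.172).

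In the Wnt pathway, which holds back adipogenesis, some genes rose and others fell. Fzd4, a Frizzled receptor, measured 9.37, 9.38 and 9.62 with DHT and 7.98, 8.20 and 8.19 with placebo and rose by 1.33 (standard error 0.11, adjusted p = 0.00246). Lgr4, a receptor for R-spondins, rose by 0.63 (adjusted p = 0.0206). Wnt2b, a ligand, fell by 0.64 (adjusted p = 0.0133), and Sfrp2, a secreted modulator of Wnt ligands, by 0.59 (adjusted p = 0.0233). Rspo3, an R-spondin that amplifies Wnt signals, measured 4.32, 5.95 and 5.58 with DHT and 8.19, 6.96 and 6.95 with placebo and fell by 2.08 (standard error 0.46, adjusted p = 0.0699). Of 58 genes of the pathway, 3 rose, 5 fell and the remaining 50 did not pass (median log2 fold change -0.11, -0.16 to -0.03 with 1 array left out). Dkk2, a Wnt antagonist, had a log2 difference of -1.16 (adjusted p = 0.15). The calls of Lgr4 and Sfrp2 were lost without DHT replicate 2 (adjusted p = 0.106 to 0.129). Rspo3 missed the threshold without any 1 of the 6 arrays (adjusted p = 0.105 to 0.141).

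Growth factor genes rose and fell. Igfbp3 and Igfbp5, which bind insulin-like growth factors, fell by 1.28 (adjusted p = 0.0257) and 1.11 (adjusted p = 0.0184). Irs3, an insulin receptor substrate of rodent adipocytes, rose by 0.47 (adjusted p = 0.072). Of 31 genes of IGF and insulin signalling, 3 rose, 2 fell and the remaining 26 did not pass (median log2 fold change -0.03, -0.04 to 0.03 with 1 array left out). Kit, the receptor of stem cell factor, measured 5.60, 5.34 and 5.33 with DHT and 6.67, 6.47 and 6.64 with placebo and fell by 1.17 (standard error 0.11, adjusted p = 0.00352). Angpt1, a ligand of the endothelial receptor Tie2, rose by 1.38 (adjusted p = 0.0477), and Fgfr1, a fibroblast growth factor receptor, by 0.64 (adjusted p = 0.0319). Of 60 angiogenic factors and receptors, 4 rose, 3 fell and the remaining 53 did not pass (median log2 fold change -0.02, -0.03 to 0.06 with 1 array left out). In TGF-beta, BMP and activin signalling, Fst, or follistatin, which binds activins, fell by 0.77 (adjusted p = 0.0257) and the BMP antagonist Nbl1 by 0.69 (adjusted p = 0.0319). Bmper, a modulator of BMPs, rose by 0.66 (adjusted p = 0.0331) and the co-receptor Tgfbr3 by 0.47 (adjusted p = 0.0621). That list held 61 genes tested, of which 4 rose, 4 fell and the remaining 53 did not pass (median log2 fold change 0.00, -0.03 to 0.04 with 1 array left out). Tnfrsf12a, the receptor of the cytokine TWEAK, measured 7.50, 8.13 and 7.67 with DHT and 5.82, 6.26 and 6.22 with placebo and rose by 1.66 (standard error 0.18, adjusted p = 0.00607). The calls of Igfbp3, Fgfr1 and Bmper ended without DHT replicate 2 or control replicate 3 (adjusted p = 0.104 to 0.152). Irs3 and Tgfbr3 no longer passed without DHT replicate 2 or 3 or control replicate 2 or 3 (adjusted p = 0.119 to 0.276). The call of Angpt1 was lost without DHT replicate 2 or control replicate 2 (adjusted p = 0.116 to 0.174). Fst missed the threshold without control replicate 3 (adjusted p = 0.107). The call of Nbl1 ended without DHT replicate 2 (adjusted p = 0.114).

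**Figure D3:**
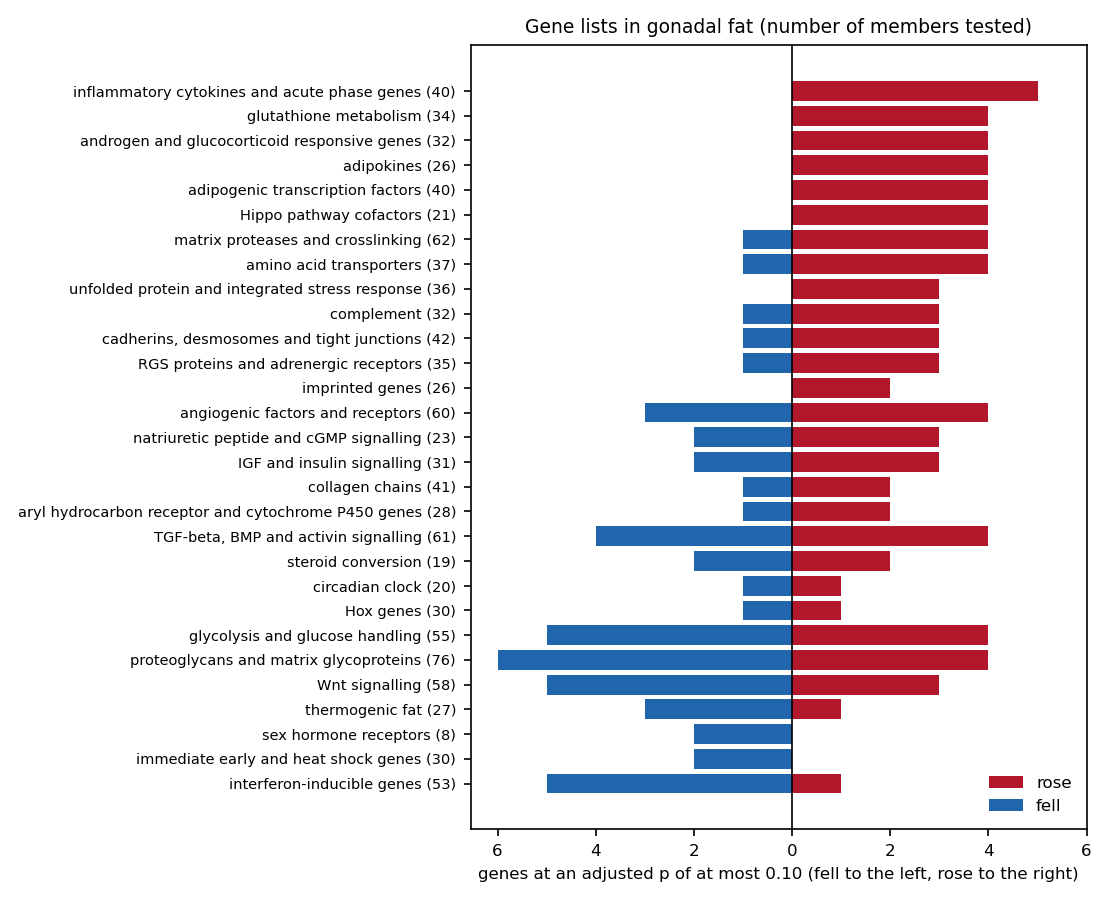
Genes that rose (red, to the right of 0) or fell (blue, to the left) at an adjusted p of at most 0.10 in each functional list with at least 2 such genes. Each bar counts genes and the number in brackets is that of the members tested; the list of inflammatory and acute phase genes has 5 risen members and the matrix glycoproteins have 6 fallen ones.

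Within the extracellular matrix, Col6a5 and Col6a6 rose, and the other collagen VI chains tested did not pass. Col6a5, which encodes an alpha 5 chain of this microfibrillar collagen, measured 6.69, 6.99 and 6.61 with DHT and 5.02, 5.23 and 5.16 with placebo and rose by 1.62 (standard error 0.12, adjusted p = 0.00213). Col6a6 rose by 0.40 (adjusted p = 0.0613). Col6a1, Col6a2 and Col6a3, which form the common heterotrimer, had log2 fold changes of -0.54 (adjusted p = 0.342), -0.43 (adjusted p = 0.411) and -0.46 (adjusted p = 0.365), with control replicate 1 highest in each. Without that array they were -0.21, -0.13 and -0.18. Of 41 collagen chains, 2 rose, 1 fell and the remaining 38 did not pass (median log2 fold change -0.14, -0.22 to -0.05 with 1 array left out). Col14a1, a collagen that binds to fibrils, fell by 1.18 (adjusted p = 0.0736). Col1a1, of the main fibrillar collagen, had a log2 difference of -0.75 (adjusted p = 0.266), and of -0.35 without control replicate 1. Col6a6 no longer passed without any 1 array other than DHT replicate 1 (adjusted p = 0.106 to 0.27). The call of Col14a1 was lost without DHT replicate 1, 2 or 3 or control replicate 3 (adjusted p = 0.112 to 0.251).

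Small leucine-rich proteoglycans and other matrix glycoproteins went both ways. Lum, or lumican, which spaces collagen fibrils, measured 5.66, 5.84 and 5.90 with DHT and 8.77, 7.32 and 7.41 with placebo and fell by 2.03 (standard error 0.34, adjusted p = 0.0319). Mgp, which inhibits calcification, measured 8.55, 8.95 and 8.59 with DHT and 10.01, 9.77 and 9.65 with placebo and fell by 1.11 (standard error 0.14, adjusted p = 0.0101). Mfap4, a microfibril protein, fell by 0.77 (adjusted p = 0.0176), the matrix protein Mamdc2 by 1.23 (adjusted p = 0.0724) and the secreted C1qtnf3, a relative of adiponectin, by 1.89 (adjusted p = 0.033). Podn, or podocan, rose by 1.0 (adjusted p = 0.00352). Of 76 proteoglycans and matrix glycoproteins, 4 rose, 6 fell and the remaining 66 did not pass (median log2 fold change -0.04, -0.07 to 0.01 with 1 array left out). Thbs1, or thrombospondin 1, had a log2 difference of 1.35 and did not pass (adjusted p = 0.106). Adamts5, a protease that cleaves aggrecan and versican, measured 8.75, 9.09 and 9.44 with DHT and 7.39, 7.19 and 7.25 with placebo and rose by 1.82 (standard error 0.17, adjusted p = 0.00352). Timp4, an inhibitor of metalloproteinases, measured 8.34, 8.32 and 8.17 with DHT and 6.91, 6.98 and 6.97 with placebo and rose by 1.33 (standard error 0.09, adjusted p = 0.00165). Adam9 and Adam15, membrane-bound metalloproteinases, rose by 0.55 (adjusted p = 0.051) and 0.55 (adjusted p = 0.042). Of 62 genes of matrix proteolysis and crosslinking, 4 rose, 1 fell and the remaining 57 did not pass (median log2 fold change -0.12, -0.16 to -0.07 with 1 array left out). Lum, Mamdc2, C1qtnf3, Rspo3 and Pde5a were each highest in control replicate 1, the array with the most smooth muscle transcripts, whose part in these decreases was not tested. Without that array, the log2 differences of Lum, Mamdc2, C1qtnf3 and Pde5a shrank to -1.56, -0.88, -1.49 and -1.42. With all arrays they were -2.03, -1.23, -1.89 and -1.74. The adjusted p-values of these 4 genes without it were 0.00492, 0.0491, 0.0217 and 0.0467. Rspo3 then had a log2 difference of -1.67 and did not pass (adjusted p = 0.111). Lum, Mfap4 and C1qtnf3 missed the threshold without DHT replicate 2 (adjusted p = 0.105 to 0.124). The call of Mamdc2 ended without DHT replicate 1, 2 or 3 or control replicate 2 (adjusted p = 0.118 to 0.201). Adam9 no longer passed without DHT replicate 1 or 2 or control replicate 3 (adjusted p = 0.112 to 0.214). The call of Adam15 was lost without DHT replicate 2 or control replicate 3 (adjusted p = 0.163 to 0.197).

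Among junction proteins, Pkp2 changed most. It encodes plakophilin 2, a plaque protein of desmosomes, measured 7.58, 8.05 and 8.06 with DHT and 6.0, 6.04 and 5.75 with placebo and rose by 1.97 (standard error 0.15, adjusted p = 0.00233). Cldn5, the claudin of endothelial tight junctions, rose by 0.95 (adjusted p = 0.0319) and Cdh5, the endothelial cadherin, by 0.40 (adjusted p = 0.0932). Cdh11, a cadherin of mesenchymal cells, fell by 1.20 (adjusted p = 0.0707). The remaining 38 of 42 cadherin, desmosome and tight junction genes did not pass. Adap2 has a GTPase-activating domain for ARF6 and binds phosphoinositides. It measured 7.92, 8.02 and 7.73 with DHT and 6.04, 5.99 and 5.83 with placebo and rose by 1.94 (standard error 0.11, adjusted p = 0.0014). This was the smallest adjusted p of all genes, shared with Sult1e1, whose control values lay below the array medians. Cldn5 missed the threshold without DHT replicate 2 or control replicate 3 (adjusted p = 0.105 to 0.125). The call of Cdh5 ended without any 1 array other than control replicate 2 (adjusted p = 0.119 to 0.335). Cdh11 no longer passed without any 1 array other than control replicate 1 (adjusted p up to 0.197).

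Among genes of glucose handling, some rose and others fell. The glucose transporters Slc2a1 and Slc2a3 rose by 0.72 (adjusted p = 0.0157) and 0.70 (adjusted p = 0.0199), and Slc2a5, the fructose transporter, fell by 1.10 (adjusted p = 0.0481). Ppp1r3b, which targets protein phosphatase 1 to glycogen, measured 6.82, 5.77 and 5.38 with DHT and 7.67, 7.53 and 8.47 with placebo and fell by 1.90 (standard error 0.37, adjusted p = 0.0502). Pgm3, a mutase of the hexosamine pathway, measured 7.06, 5.88 and 5.77 with DHT and 8.47, 7.53 and 8.84 with placebo and fell by 2.04 (standard error 0.41, adjusted p = 0.052). Pfkp, a phosphofructokinase, fell by 0.57 (adjusted p = 0.0441). Of 55 genes of glycolysis and glucose handling, 4 rose, 5 fell and the remaining 46 did not pass (median log2 fold change -0.12, -0.18 to -0.09 with 1 array left out). Sorl1, a sorting receptor that in mouse fat has been linked to insulin receptor recycling, measured 6.72, 5.87 and 5.59 with DHT and 7.65, 7.33 and 7.89 with placebo and fell by 1.56 (standard error 0.28, adjusted p = 0.0365). In Ppp1r3b, Pgm3 and Sorl1 alike, DHT replicate 1 was the highest of the DHT values and lay below the lowest control value. Control replicate 3, the array with the most skeletal muscle transcripts, was highest in all 3 genes, and the part of those transcripts was not tested. The call of Slc2a5 was lost without DHT replicate 2 or 3 or control replicate 3 (adjusted p = 0.108 to 0.172). Ppp1r3b, Pfkp and Sorl1 missed the threshold without DHT replicate 2 or control replicate 3 (adjusted p = 0.132 to 0.196). The call of Pgm3 ended without DHT replicate 2 or 3 or control replicate 1 or 3 (adjusted p = 0.104 to 0.201).

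The transporter gene Slc6a13 rose and Slc36a2 fell. Slc6a13, a transporter of GABA and taurine, measured 6.77, 6.54 and 7.25 with DHT and 5.26, 5.41 and 5.23 with placebo and rose by 1.56 (standard error 0.17, adjusted p = 0.00607). Slc36a2, a proton-coupled transporter known as a surface marker of brown and beige adipocytes, fell by 1.09 (adjusted p = 0.0104). Slc7a6 and Slc1a3 rose by 0.63 (adjusted p = 0.0227) and 0.45 (adjusted p = 0.0349). Of 37 transporters, 4 rose, 1 fell and the remaining 32 did not pass (median log2 fold change -0.05, -0.04 to 0.02 with 1 array left out). The 3 targets of the integrated stress response that rose were Mthfd2 of mitochondrial one-carbon metabolism, by 1.16 (adjusted p = 0.0448), Asns, the asparagine synthetase, by 0.57 (adjusted p = 0.0505) and Phgdh, which starts serine synthesis, by 0.79 (adjusted p = 0.0569). The other 33 genes of the unfolded protein and integrated stress response did not pass. Of 75 respiratory chain subunits, Cox8a alone passed, rising by 0.62 (adjusted p = 0.0248), and the list had a median of 0.04. Of 27 genes of thermogenic fat, 1 rose, 3 fell and the remaining 23 did not pass (median log2 fold change -0.11, -0.16 to -0.05 with 1 array left out). Ppara, a nuclear receptor of fatty acid oxidation, rose by 0.76 (adjusted p = 0.0226). Besides Slc36a2, those that fell were Kcnk3, a potassium channel of beige fat, which fell by 0.70 (adjusted p = 0.0331), and Ucp3, a mitochondrial carrier, by 0.49 (adjusted p = 0.0961). Ucp1, the uncoupling protein of brown fat, measured 5.08, 3.56 and 3.63 with DHT and 4.78, 5.93 and 5.26 with placebo, with overlapping groups and a log2 fold change of -1.23 (adjusted p = 0.208). Slc7a6 no longer passed without DHT replicate 2 (adjusted p = 0.122). The calls of Slc1a3, Cox8a, Ppara and Kcnk3 were lost without DHT replicate 2 or control replicate 3 (adjusted p = 0.102 to 0.195). Mthfd2 missed the threshold without DHT replicate 2 or control replicate 2 or 3 (adjusted p up to 0.174). The call of Asns ended without DHT replicate 2 or control replicate 1 or 3 (adjusted p = 0.105 to 0.174). Phgdh no longer passed without any 1 array other than control replicate 3 (adjusted p = 0.111 to 0.176). The call of Ucp3 was lost without any 1 array other than control replicate 1 (adjusted p = 0.145 to 0.326).

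Hp, Anxa1 and Anxa2 led the cytokine and acute phase genes that rose. The 40 cytokine and acute phase genes tested had a median log2 fold change of 0.14, and 0.05 to 0.19 with 1 array left out. Where 2.67% of all genes rose and 1.21% fell, 35 of the 40 did not pass, none fell and 5 rose. Besides Hp, which rose by 1.06, they included Anxa1, a mediator that ends inflammation and a glucocorticoid target. Anxa1 measured 7.64, 7.50 and 7.53 with DHT and 6.74, 6.15 and 6.42 with placebo and rose by 1.12 (standard error 0.15, adjusted p = 0.012). Its relative Anxa2 rose by 0.79 (adjusted p = 0.0143) and Il1r1, the interleukin 1 receptor, by 0.64 (adjusted p = 0.0775). Of 53 interferon-inducible genes, 1 rose, 5 fell and the remaining 47 did not pass (median log2 fold change -0.10, -0.12 to -0.08 with 1 array left out). Igtp, an immunity-related GTPase, measured 6.30, 5.69 and 5.90 with DHT and 7.41, 6.92 and 7.44 with placebo and fell by 1.29 (standard error 0.19, adjusted p = 0.02). Bst2, or tetherin, fell by 0.72 (adjusted p = 0.0479) and Oas2, which makes oligoadenylates, by 0.46 (adjusted p = 0.0526), while Ifi27l2a rose by 0.93 (adjusted p = 0.0532). Of 36 chemokines and receptors, Ccl9 rose by 0.70 (adjusted p = 0.084) and the others did not pass, Cxcl9 with a log2 fold change of 1.10 (adjusted p = 0.152). No member of the lists of MHC genes (24 tested), leukocyte adhesion (20) or melanocortin receptors (4) passed. Il1r1 missed the threshold without any 1 array other than DHT replicate 3 (adjusted p = 0.102 to 0.272). The call of Bst2 ended without DHT replicate 2 or control replicate 3 (adjusted p = 0.163 to 0.174). Oas2 and Ifi27l2a no longer passed without any 1 array other than control replicate 2 (adjusted p = 0.106 to 0.201). The call of Ccl9 was lost without DHT replicate 1 or 2 or control replicate 2 or 3 (adjusted p = 0.191 to 0.279).

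The cell cycle, clock, heat shock and guidance lists are read against the shares of all genes, 2.67% that rose and 1.21% that fell. In the cell cycle list, 1 of 35 genes did, E2f2, a transcription factor of S phase entry, which fell by 0.39 (adjusted p = 0.0975). Among 20 clock genes, the repressor Nfil3 fell by 0.49 (adjusted p = 0.0736) and the nuclear receptor Rora rose by 0.41 (adjusted p = 0.0937). The heat shock genes Hsph1 and Hspa1a fell by 0.98 (adjusted p = 0.074) and 0.61 (adjusted p = 0.0895), among 30 immediate early and heat shock genes. Plxna4, a semaphorin receptor, fell by 0.51 (adjusted p = 0.0543), and the other 59 guidance molecules did not pass. E2f2, Rora and Hspa1a missed the threshold without any 1 of the 6 arrays (adjusted p = 0.104 to 0.291). The call of Nfil3 ended without DHT replicate 2 or 3 or control replicate 2 or 3 (adjusted p = 0.145 to 0.27). Hsph1 no longer passed without DHT replicate 2 or control replicate 1, 2 or 3 (adjusted p = 0.131 to 0.225). The call of Plxna4 was lost without DHT replicate 1 or 2 or control replicate 1 or 2 (adjusted p = 0.104 to 0.227).

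Adipocyte markers were higher with DHT, and mesothelial markers had a median below 0. Adipocyte markers had a mean over 12 genes of 10.09, 9.99 and 9.99 with DHT and 9.43, 9.48 and 9.51 with placebo, and the groups did not overlap. Of these, 5 rose, none fell and the remaining 7 did not pass (median log2 fold change 0.38, 0.35 to 0.42 with 1 array left out). Those that rose were Lep, Plin4 of the lipid droplet, the lipase Lipe, Pck1 of glyceroneogenesis and the activin receptor Acvr1c, by 2.08, 0.80, 0.38, 1.40 and 0.75. Of 19 mesothelial markers tested, none rose, 4 fell and the remaining 15 did not pass (median log2 fold change -0.42, -0.63 to -0.25 with 1 array left out). Those that fell were Igfbp5, Wt1, a transcription factor of the mesothelium, by 0.73 (adjusted p = 0.0521), the keratin Krt7 by 0.44 (adjusted p = 0.0692) and Bnc1 by 0.58 (adjusted p = 0.0814). Their mean levels were 6.18, 5.90 and 5.61 with DHT and 6.51, 6.14 and 6.14 with placebo, and these groups overlapped. Lipe and Bnc1 missed the threshold without any 1 of the 6 arrays (adjusted p = 0.107 to 0.248). The call of Pck1 ended without DHT replicate 2 or 3 or control replicate 1 or 3 (adjusted p = 0.116 to 0.223). Acvr1c no longer passed without DHT replicate 2 or control replicate 1, 2 or 3 (adjusted p = 0.141 to 0.199). The call of Wt1 was lost without DHT replicate 1 or 3 or control replicate 3 (adjusted p = 0.116 to 0.149). Krt7 missed the threshold without any 1 array other than DHT replicate 1 (adjusted p = 0.121 to 0.281).

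Endothelial markers had a mean of 7.42, 7.56 and 7.53 with DHT and 7.27, 7.46 and 7.24 with placebo, and Rgcc, a cell cycle regulator of capillary endothelium, rose by 1.14 (adjusted p = 0.00352) together with Cldn5 and Cdh5. The other 15 endothelial markers did not pass. Of 22 macrophage markers, Mertk, a receptor for the uptake of dying cells, rose by 0.50 (adjusted p = 0.0725), and 21 did not pass (median log2 fold change 0.26). The macrophage median was 0.45 without control replicate 1 and 0.09 without control replicate 3. Kit was the sole mast cell marker of 8 to pass. None of 17 fibroblast and progenitor markers passed, with a median of -0.11. Lymphocyte, neutrophil, nerve, pancreas and mammary lists had no member that passed, and their mean levels stayed under 5 in all 6 arrays. No oviduct, lymphatic, red blood cell or brown adipocyte marker passed. Of the ovary and dendritic cell lists, only Star and Bst2 passed, both falling as above. The call of Mertk ended without any 1 array other than DHT replicate 3 (adjusted p = 0.105 to 0.279). Cldn5 no longer passed without DHT replicate 2 or control replicate 3 (adjusted p = 0.105 to 0.125). The call of Cdh5 was lost without any 1 array other than control replicate 2 (adjusted p = 0.119 to 0.335).

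Muscle transcripts varied between mice of a group. The mean of 18 smooth muscle markers was 6.43, 7.12 and 6.87 with DHT and 7.82, 6.84 and 7.02 with placebo, with control replicate 1 highest. Myh11, the smooth muscle myosin, measured 10.37 in that array against 8.55 and 9.06 in the other controls. The mean of 13 skeletal muscle markers was 4.64, 4.75 and 5.07 with DHT and 4.54, 4.87 and 6.94 with placebo, with control replicate 3 highest. Tnnt3, a fast troponin, measured 7.70 there against 4.57 and 4.90. No smooth or skeletal muscle marker passed the test. The smooth muscle median moved from -0.33 to -0.06 without control replicate 1, and the skeletal muscle median from -0.57 to -0.03 without control replicate 3.

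**Figure D4:**
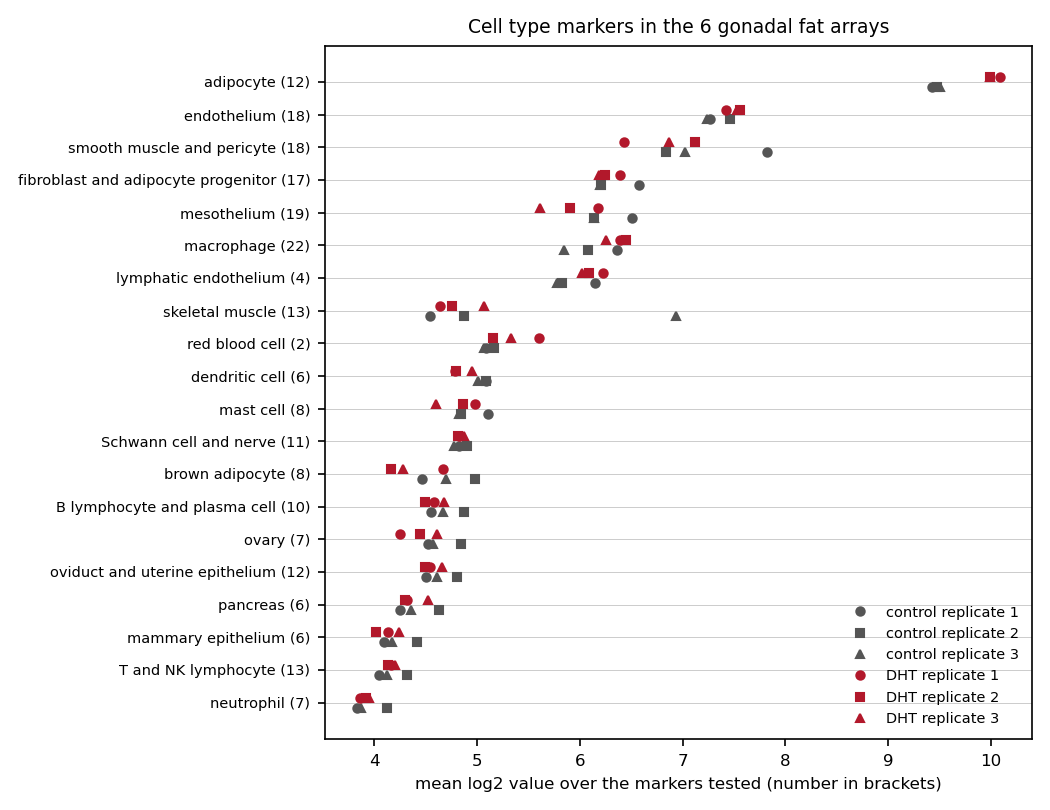
Mean log2 value (x axis) over the tested markers of each cell type (rows, number of markers in brackets) in each of the 6 gonadal fat arrays. Red symbols are DHT-treated and grey ones placebo-treated mice; adipocyte markers lie between 9.43 and 10.09 without overlap, smooth muscle markers reach 7.82 in control replicate 1 and skeletal muscle markers 6.94 in control replicate 3.

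The change in gonadal fat was set against that in the ovaries under the same treatment. In a fit of all 12 arrays, the change in gonadal fat differed from that in the ovaries for 1110 of 18057 genes tested in both tissues (6.15%). Of the 110 dysregulated genes of gonadal fat, 93 were tested in both tissues, and the difference passed in 67. These genes were chosen for their change in gonadal fat, so this share is a description. With the presumed mouse as a block, the difference passed in 75. The labels do not state that ovary and fat arrays of the same number came from the same mouse. The number of all genes that differed was 251 without DHT replicate 2 of both tissues and 1290 without control replicate 1.

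The 5 genes C7, Col6a5, E030003E18Rik, Kit and Rgcc passed the criteria in both tissues. Sult1e1, C6 and Cyp1a1 were not among the genes tested in both tissues, so their change in the ovaries was not tested. The paper lists Sult1e1 among the genes dysregulated in both. C7 had log2 fold changes of 3.29 in gonadal fat and 3.40 in the ovaries, and Col6a5 of 1.62 and 1.59. Their tissue differences were -0.11 (standard error 0.42) and 0.03 (standard error 0.19). E030003E18Rik, a gene without a known product, rose in both, by 1.19 and 1.86. Kit went in opposite directions, with -1.17 in gonadal fat and 1.68 in the ovaries (difference -2.85, adjusted p = 2.57e-05). Rgcc did as well, with 1.14 and -1.04 (difference 2.18, adjusted p = 0.000824). E030003E18Rik missed the threshold without DHT replicate 2 (adjusted p = 0.106).

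**Figure D5:**
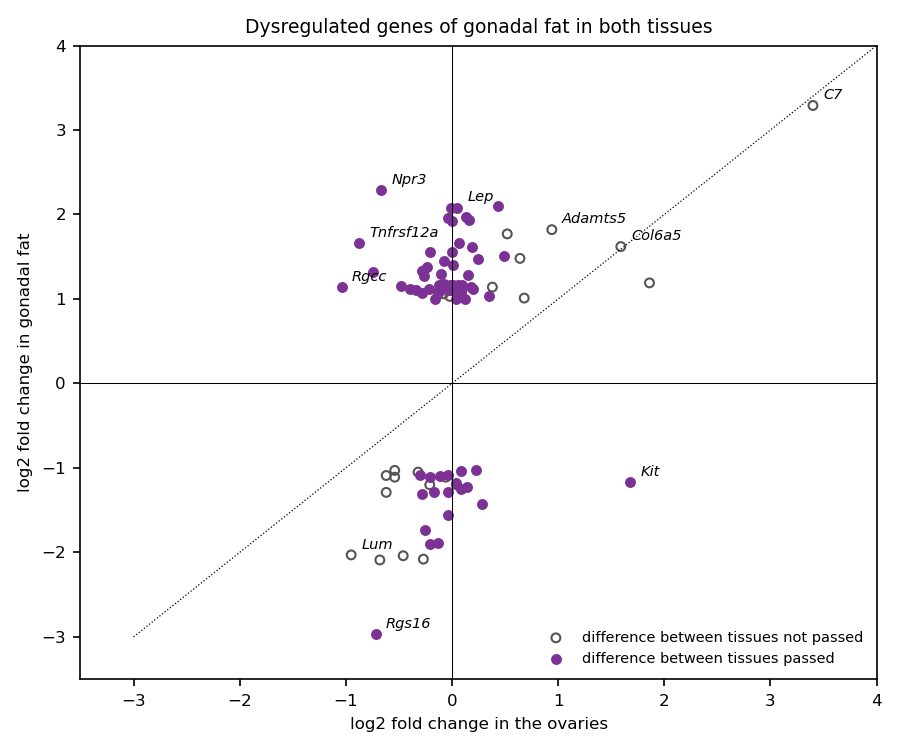
Log2 fold change in the ovaries (x axis) against that in gonadal fat (y axis) for the 93 dysregulated genes of gonadal fat tested in both tissues; each point is 1 gene and the dotted line marks equal change. Filled points are the 67 genes whose change differed between the tissues at an adjusted p of at most 0.10, C7 and Col6a5 lie near the line, and Kit lies at -1.17 in gonadal fat and 1.68 in the ovaries.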

How the data were processed

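Gonadal fat and ovaries of DHT-treated and placebo-treated mice (3 of each) were measured on Affymetrix mouse transcriptome arrays. The authors deposited log2 signals per transcript cluster. MAS5 is named in the submitters' processing notes; how arrays were normalized, and the genome build, are not given in the sources used here. No further normalization was applied. Of 65929 clusters, 30646 carried 1 gene symbol, 2168 several and 33115 none; each gene was represented by its cluster of highest mean, which left 30106 genes. In the gonadal fat columns, clusters of chromosomes 10 to 19 stood 58 rows from their names. Re-pairing raised the correlation of gonadal fat and ovary means across these clusters from 0.014 to 0.946, against 0.943 elsewhere.

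The difference between groups was fitted for 19227 genes above the array median in at least 3 arrays with limma 3.58.1 in R 4.3.3, with Benjamini-Hochberg adjustment, with a threshold of 0.10 and, for dysregulated genes, a fold of at least 2. The script was tested on simulated data. The tissue difference came from an interaction term over 12 arrays. Replicate numbers do not pair DHT with control arrays. Arrays of the 2 tissues with the same treatment and number deviated together (r = 0.11 to 0.194). The labels do not state that these came from the same mouse. Gonadal fat arrays of DHT and control mice with the same number had r = 0.268, -0.183 and -0.172. Values of this size therefore do not settle whether the mouse was shared. A fit with this presumed mouse as a block stood beside the interaction. Named genes were the 15 largest non-overlapping changes each way outside the lipid list, the collagen VI genes, up to 4 passing and 2 other members per list, and genes past the criteria in both tissues. The members and lists were chosen with earlier results of these data known. Alternatives were quantile normalization, median centring, other filters, the mean of clusters, an intensity trend, a replicate block, 1 fit of 12 arrays, SAM, undisplaced clusters alone and leaving out arrays.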

Additional observations from a re-analysis of the deposited data

Results flagged for a closer look

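The effect of DHT differed between gonadal fat and ovaries by an interaction test over all 12 arrays for the following named genes, each given on the log2 scale as gonadal fat minus ovaries. Of these, 5 passed in each tissue with opposite signs. The difference was -2.85 for Kit (adjusted p = 2.57e-05), 2.18 for Rgcc (adjusted p = 0.000824) and 2.07 for Fkbp5 (adjusted p = 0.00138). It was 1.28 for Pde1a (adjusted p = 0.00293) and 0.73 for Lipe (adjusted p = 0.00186). In the ovaries, Rgcc (adjusted p = 0.0708), Pde1a (adjusted p = 0.072) and Lipe (adjusted p = 0.0846) passed closer to the threshold than Kit (0.0103) and Fkbp5 (0.0253). With 1 gonadal fat array left out, the fat call of Lipe was lost in all 6 fits, that of Fkbp5 in 4 and that of Pde1a in 1. The fat calls of Kit and Rgcc were kept in all.

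Other genes rose in gonadal fat and did not pass in the ovaries. Npr3 differed by 2.96 (adjusted p = 0.000939), with a log2 fold change of -0.67 in the ovaries, and Tnfrsf12a by 2.55 (adjusted p = 0.00586), with -0.88 there. Nnat differed by 2.09 (adjusted p = 0.00206), Lep by 2.04 (adjusted p = 0.00163), Mt2 by 2.0 (adjusted p = 0.00186) and Tpmt by 1.92 (adjusted p = 0.0125). Pkp2 differed by 1.83 (adjusted p = 0.00364), Adap2 by 1.78 (adjusted p = 0.000939) and Ccdc80 by 1.77 (adjusted p = 0.00323). Vgll3 differed by 1.68 (adjusted p = 0.00997) and Fzd4 by 1.61 (adjusted p = 0.00166). Rgs16, which fell in both tissues, differed by -2.25 (adjusted p = 0.00585), with a log2 fold change of -0.72 in the ovaries. With the presumed mouse as a block, all 17 differences still passed (adjusted p = 0.00253 to 0.0258). These genes were picked for their change in gonadal fat.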

How the results depend on the processing

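None of the 134 named genes that passed changed direction under the alternatives run gene by gene. Where the groups of a gene do not overlap, leaving out arrays cannot change its direction, so those settings do not test it. The other filters, the intensity trend, the replicate block and the fit of 12 arrays use the same group means, so they cannot either. That leaves quantile normalization, median centring and the mean of clusters as settings that could. Leaving out 1 of the 6 arrays gave 109 to 480 genes that rose and 29 to 171 that fell, and 56 to 83 higher and 13 to 47 lower dysregulated genes, in each case the fewest without DHT replicate 2. Of the 134 named calls, 79 were lost without DHT replicate 2, 64 without control replicate 3 and 30 to 38 without each of the others. Leaving out control replicates 1 and 3, a choice made after seeing the data, left 94 genes that rose, 26 that fell and 17 lower dysregulated genes, and 89 named calls were lost. Median centring left 71 that fell and 22 lower dysregulated genes, and 36 named calls were lost, among them those of Rspo3 (adjusted p = 0.113), Pgm3 (adjusted p = 0.107) and Mamdc2 (adjusted p = 0.14). With the replicate block, 409 genes fell and 713 rose, 5 named calls were lost and 7 gained; the numbers do not pair DHT with control arrays (r = 0.268, -0.183 and -0.172). One fit of all 12 arrays gave 1383 and 543, with Timp4 short of the threshold (adjusted p = 0.101). Undisplaced clusters alone gave 334 and 137, with 45 higher and 20 lower dysregulated genes. SAM, with its 20 distinct labellings, gave 52 and 7, with 39 and 5. An adjusted p of at most 0.05 gave 244 and 92. The tissue difference passed in 251 to 1290 genes when 1 replicate of both tissues was left out. Causes of these changes were not tested.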

Other observations

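The following genes stood on no list and were chosen after their values were seen. The smallest adjusted p among them was that of Tmeff1, which encodes a transmembrane protein with follistatin-like modules. It measured 7.04, 7.15 and 7.32 with DHT and 5.68, 5.72 and 5.57 with placebo, a log2 fold change of 1.51 (adjusted p = 0.00165). The microtubule-associated Map7d3 rose by 1.66 (adjusted p = 0.00213) and Zyg11a, a substrate adaptor of an E3 ubiquitin ligase, by 1.6 (adjusted p = 0.00246). Sucnr1, the receptor of succinate, rose by 1.35 (adjusted p = 0.00352). Scn7a, an atypical sodium channel, rose by 1.47 (adjusted p = 0.0194) and Slc16a12, a creatine transporter, by 1.61 (adjusted p = 0.0257). Sncg, or synuclein gamma, which adipocytes express, measured 10.10, 9.97 and 10.37 with DHT and 8.65, 9.24 and 8.19 with placebo and rose by 1.45 (adjusted p = 0.0306). It no longer passed without DHT replicate 2 (adjusted p = 0.105).

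Ifngr1, the ligand-binding chain of the interferon gamma receptor, measured 8.70, 8.67 and 8.41 with DHT and 7.45, 7.52 and 7.31 with placebo and rose by 1.17 (adjusted p = 0.00352), while the interferon-inducible Igtp fell by 1.29 (adjusted p = 0.02).

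Tuba1a, an alpha tubulin, rose by 1.12 (adjusted p = 0.00856) in gonadal fat and had a log2 fold change of -0.22 in the ovaries. The 5 numbered genes Gm6682, Gm3756, Gm14150, Gm5620 and Gm15599, which RefSeq lists as pseudogenes, were also dysregulated and rose by 1.07 to 1.16. The files do not show whether near-identical copies share probes, so numbered pseudogenes are uncertain.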
